A study of Mus musculus with 4 samples.

Results

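The inducible heat shock chaperones were taken as 10 genes: Hspa1a, Hspa1b, Hspa8, Hsph1, Dnajb1, Hsp90aa1, Hsp90ab1, Hspb1, Bag3 and Hsf1. They were found by gene symbol among the probe sets of an Affymetrix mouse array, and a probe set is a group of short probes for the same transcript. Of the 10 genes, 8 had a probe set carrying their symbol alone, with 20 probe sets between them, out of 18193 genes on the array. Hsp90ab1 and Hsf1 are not analysed here. Hspa1a and Hspa1b were put among the members partly because they were high in knockout cells of the first comparison below, so those values are given as a description.

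The study sorted a pair of blood progenitor populations from wild-type mice and from Trib1-/- mice, all on the same mixed background of C57BL6J and 129SV and all unstimulated. GMP are granulocyte monocyte progenitors, and MDP is the label of cells described as macrophage dendritic cell, a name in common use for the progenitor of monocytes and dendritic cells. Trib1 encodes a pseudokinase that brings C/EBP transcription factors to a ubiquitin ligase. Each of the 4 groups, a genotype in a population, was measured on 1 array, so there is no spread within a group and no test was made. The sources used here do not give the age of the mice, the number pooled per array, the sort gates or the deleted part of Trib1.

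When proteins unfold, the transcription factor HSF1 is released from its chaperones, binds heat shock elements and switches on chaperone genes within minutes. The HSP70 proteins then hold unfolded chains with the help of DNAJ partners and of nucleotide exchange factors such as the HSP110 proteins, and HSP90 takes over later folding steps. HSPA8 and HSP90AB1 are made all the time in most cells, whereas Hspa1a and Hspa1b are nearly silent in many resting cells and respond steeply.

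Hspa1a and Hspa1b are neighbours on chromosome 17, next to Hspa1l, and encode nearly identical proteins. Their upstream sequences are shown because both were partly chosen for high values in Trib1-/- GMP and because probes may not separate such alike copies. The RefSeq promoter table for GRCm38.p6, which covers 250 bases before and 50 after each start site, held 6 of the 10 members. Both stretches below end at the base before the start site and are read 5′ to 3′ on the minus strand, Hspa1a from chr17:34972157-34972406 and Hspa1b from chr17:34959239-34959488. Capitals mark a pair of heat shock units facing each other, GAANNTTC.
Hspa1a: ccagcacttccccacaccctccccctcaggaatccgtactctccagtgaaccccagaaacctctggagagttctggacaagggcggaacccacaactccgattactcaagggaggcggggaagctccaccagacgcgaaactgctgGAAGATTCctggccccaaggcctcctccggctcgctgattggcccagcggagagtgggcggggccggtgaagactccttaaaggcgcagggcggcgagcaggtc
Hspa1b: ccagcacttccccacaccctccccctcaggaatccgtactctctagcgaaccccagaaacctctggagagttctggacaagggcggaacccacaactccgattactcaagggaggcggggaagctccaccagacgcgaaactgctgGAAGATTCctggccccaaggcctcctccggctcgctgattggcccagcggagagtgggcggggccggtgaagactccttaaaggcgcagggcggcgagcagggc
The stretches were the same at 247 of 250 positions (98.8%). Counted from 1 at the 5′ end, with the base of Hspa1a first, the differences were C44T, T47C and T249G. In both genes the marked pair lay at bases -104 to -97 from the start site.

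The same letters were searched on both strands in the other members. The searched motifs were a pair of units in either arrangement, GAANNTTC or TTCNNGAA, and 3 alternating units in a row with the same spacing, which is the classical heat shock element. Each match of 3 units also holds both pairs. A pair was present in the promoter of 5 of the 6 members and in 15.1% of all 32851 promoters in the table. The triple was found in 1 member, Hsph1, and in 0.603% of all promoters. The stretches that hold these matches are shown for comparison with Hspa1a and Hspa1b, again in capitals, for Hsph1 on the minus strand (chr5:149636280-149636309, after the start site, and chr5:149636336-149636395, upstream of the later of its listed start sites), for Hspb1 on the plus strand (chr5:135887771-135887840) and for Bag3 on the plus strand (chr7:128523603-128523632, after the start site).
Hsph1 after the start site: tgctgcagaTTCTGGAAAGTTCtcctcagt
Hsph1 upstream: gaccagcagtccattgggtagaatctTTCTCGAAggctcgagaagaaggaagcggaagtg
Hspb1 upstream: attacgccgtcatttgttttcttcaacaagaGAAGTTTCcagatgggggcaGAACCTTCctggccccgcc
Bag3 after the start site: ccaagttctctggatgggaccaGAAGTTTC
Neither of the 2 listed Dnajb1 promoters held these letters. A match describes the letters only and does not show that HSF1 binds there.

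**Figure D1:**
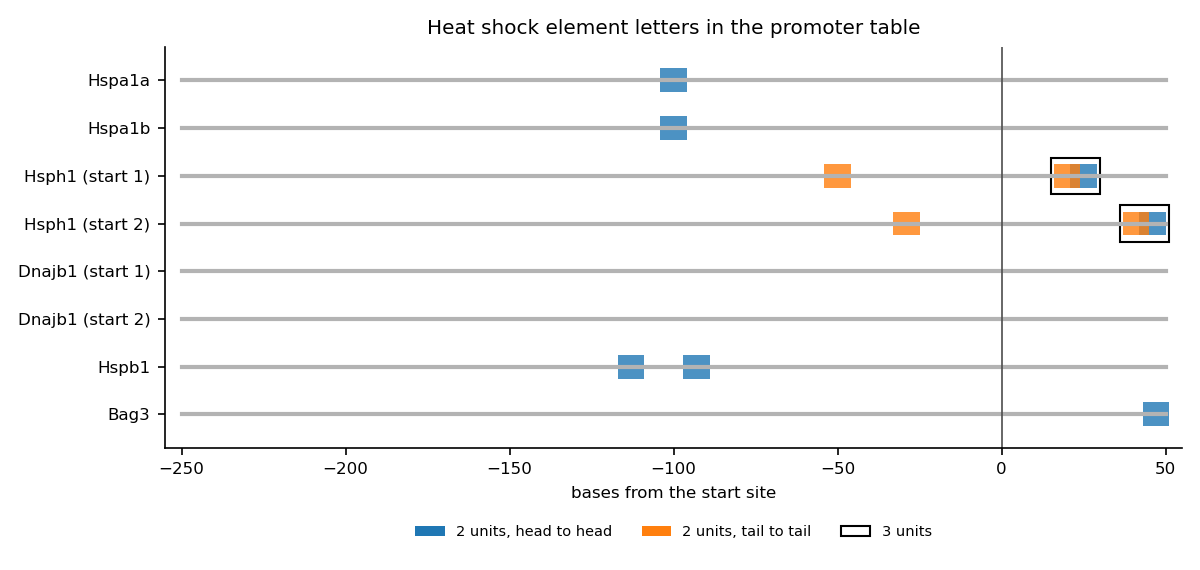
Position of heat shock element letters in the promoters of the 6 members in the RefSeq table, with the distance from the start site in bases on the x axis and a line for each listed start site. Blue and orange boxes are pairs of units in either arrangement and the open box is 3 units. Hspa1a and Hspa1b have their pair at the same place, and the triple of Hsph1 lies after both of its start sites.

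All values are RMA values, taken as log2, so a difference of 1 is 2-fold. A gene was counted as apart at a difference of at least 1, and was used where its highest value reached 3.29, the median of all values on the 4 arrays, called the floor here. Of the 8 members with a probe set, 7 passed, and Bag3 did not. Hspa1a passed only through its value in Trib1-/- GMP, the array where it was high, so it had to differ, and the counts and medians below describe the 7 and support nothing. Where a gene had several probe sets, that with the highest mean stands for it. Since there was 1 array per group, the only measurable spread was that between probe sets of the same gene, whose SD was 0.37 for the GMP genotypes, 0.38 for the MDP genotypes, 0.54 for MDP against GMP in wild type and 0.42 for the same in the knockout, over 4922 genes. Differences between animals, between sorts and between arrays are not part of this SD.

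Trib1 itself read 4.95 (wild type) and 5.10 (Trib1-/-) in GMP, and 5.99 and 5.56 in MDP, and its second probe set 4.85 and 5.19, and 5.13 and 4.71, so it was not lower on the GMP array labelled Trib1-/-. Whether its probes lie in the deleted part is not stated, so these values check neither label, and each direction below rests on the labels. Array medians ran from 3.27 to 3.31. Of 8 GMP markers, all 8 had lower values in MDP by 2-fold or more among wild-type cells, and 6 did among Trib1-/- cells. Between the GMP genotypes 7 of the 8 were below 0 in Trib1-/-, with a median of -0.54. Of the MDP markers, Csf1r, Flt3 and Irf8 were at least 2-fold higher in MDP of both genotypes. Cx3cr1 was higher in MDP by only 0.34 (wild type) and 0.30 (Trib1-/-), and Kit was below the floor on both MDP arrays. Resident macrophage markers were higher on the wild-type MDP array (mean level 5.46 over 6 genes) than on the other 3 arrays (3.29 to 3.52). Basophil and mast cell markers were highest on the wild-type GMP array (5.73 over 5 genes, against 4.36 in Trib1-/- GMP), and 3 erythroid markers were below the floor throughout. B cell and T cell markers had 1 gene each above the floor, Cd79a (3.44 to 4.62) and Cd3e (4.006 to 5.003). Hybridisation controls added equally to every array read 10.4 (wild type) and 10.8 (Trib1-/-) in GMP, and 11.0 and 10.9 in MDP. The 3′ minus 5′ difference of the Gapdh control was 1.06 (wild type) and 1.20 (Trib1-/-) in GMP against 1.44 and 1.66 in MDP, while that of the beta-actin control was 2.01 and 1.91 against 2.01 and 1.67. The part of these features in the results below was not tested. Fewer cells of a type and less RNA per cell cannot be told apart in such bulk samples.

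The first comparison set these chaperones on the Trib1-/- GMP array against those on the wild-type GMP array. Hspa1b was 3.38-fold higher on the array labelled Trib1-/- GMP. Hspa1a was above the floor on that array only, so its fold was not measured, and the other members were less than 2-fold apart. Hspa1b, the stress-inducible HSP70 gene, was represented by the probe set 1452318_a_at. It read 8.76 (wild type) and 10.51 (Trib1-/-) in GMP, and 7.55 and 6.87 in MDP. The Trib1-/- GMP array was thus the highest and the MDP arrays the lowest. The difference between genotypes in GMP was 1.76, or 3.38-fold. As this comparison was used to choose Hspa1b, the value is a description.

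The other probe sets of Hspa1b gave the same picture in GMP at lower signal. Probe set 1427126_at read 4.56 in wild-type GMP and 6.18 in Trib1-/- GMP, a difference of 1.63. Probe set 1427127_x_at, whose probes can also bind other transcripts, read 4.32 and 5.97, a difference of 1.64. All 3 were high in GMP and highest in the knockout. In MDP the weaker probe sets were below the floor on both arrays, at 2.32 and 2.27 for the first and 2.73 and 2.22 for the second, so only 1452318_a_at measured Hspa1b in MDP.

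Hspa1a, the twin gene, had a single probe set and a weak one. It read 1.68 (wild type) and 3.52 (Trib1-/-) in GMP, and 1.26 and 1.34 in MDP. Only Trib1-/- GMP was above the floor, and the other 3 arrays were below it. The difference in GMP was 1.84, and it was 0.23 after raising the low wild-type value to the floor, so its fold is uncertain. Hspa1a and Hspa1b are near-identical copies, and how far the probes of each bind the other was not tested. Their values are therefore not taken as independent of each other.

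In the GMP genotypes 2 of the 7 members were at least 2-fold higher and 0 lower. Over all 11653 genes above the floor, 0.481% were that much higher and 3.16% that much lower. Since the members were partly chosen on this comparison, nothing is read from their share. The members' median difference was 0.29, against -0.06 over all genes. Of the 20 probe sets, 4 were at least 2-fold higher, those of Hspa1a and Hspa1b. Of all 45037 probe sets without a floor, 0.697% were higher by that much and 1.85% lower. Centring each array on its median gene turned the split of all genes apart from 86.8% lower to 69.9% lower and shifted the median gene from -0.06 to 0.05, and under it Hspa1b stood at 1.86.

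**Figure D2:**
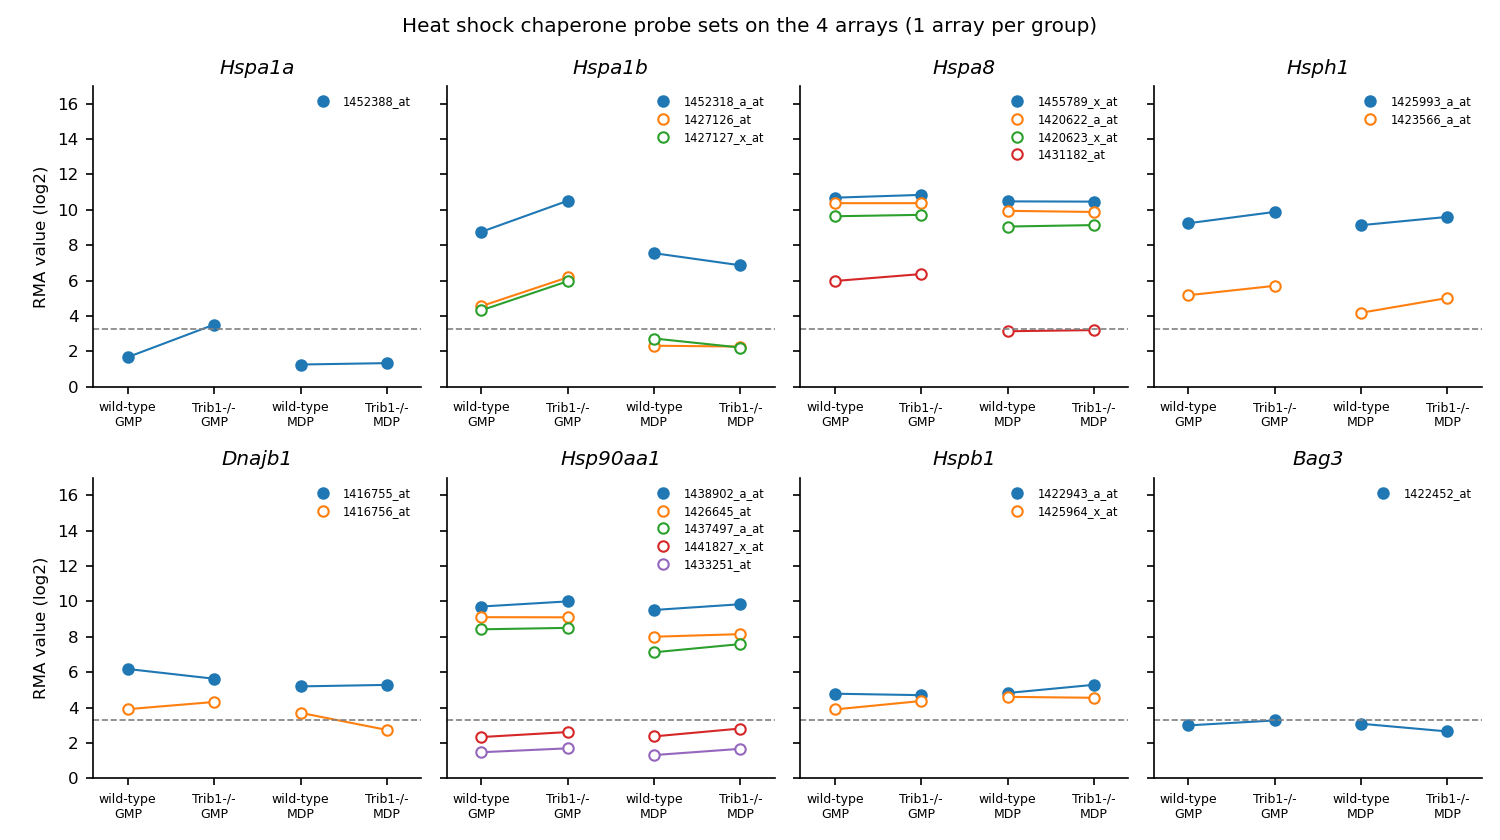
RMA values (log2, y axis) of the 20 probe sets of 8 heat shock chaperone genes on the 4 arrays (x axis), with a panel per gene, filled points for the probe set that represents the gene, lines joining the genotypes of a population and a dashed line at the floor of 3.29. All 4 probe sets of Hspa1a and Hspa1b are highest in Trib1-/- GMP, while those of Hspa8 and Hsp90aa1 are less than 0.5 apart between genotypes.

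Hsph1 followed at a distance. It encodes an HSP110 protein, a nucleotide exchange factor that works with HSP70 to take aggregates apart, and is itself induced by heat. Probe set 1425993_a_at read 9.24 (wild type) and 9.88 (Trib1-/-) in GMP, and 9.13 and 9.60 in MDP. The second, 1423566_a_at, read 5.18, 5.71, 4.18 and 5.02 in the same order. Both were higher in the knockout of each population, by 0.64 and 0.53 in GMP and by 0.47 and 0.83 in MDP. Each of these differences exceeded the SD between probe sets, and none reached 2-fold.

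Hspa8 and Hsp90aa1 were less than 2-fold apart between genotypes on every probe set. Hspa8, which encodes the constitutive HSP70 of the cytosol, was represented by 1455789_x_at, whose probes can also bind other transcripts. It read 10.69 (wild type) and 10.85 (Trib1-/-) in GMP, and 10.48 and 10.47 in MDP. These 4 values lay within 0.38 of each other, and the genotypes differed by 0.16 in GMP and -0.02 in MDP. Its other probe sets differed by 0.002 to 0.39 in GMP, the largest being 1431182_at. Hsp90aa1, the inducible form of cytosolic HSP90, read 9.71, 9.998, 9.51 and 9.84 in the same order. Its genotype differences of 0.29 in GMP and 0.32 in MDP were smaller than the SD between probe sets, and all 5 probe sets were above 0 in MDP. The other probe sets of Hsp90aa1 lay between -0.01 and 0.28 in GMP and between 0.15 and 0.46 in MDP, and 2 of its 5, 1441827_x_at and 1433251_at, were below the floor on all arrays.

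The co-chaperones and the small heat shock protein gave no common direction. Dnajb1, the HSP40 partner that hands clients to HSP70 and is a heat-inducible gene, read 6.18 (wild type) and 5.63 (Trib1-/-) in GMP, and 5.19 and 5.28 in MDP. It was thus highest in wild-type GMP, where Hspa1b was not, with a genotype difference of -0.55 in GMP. The second probe set of Dnajb1, 1416756_at, read 3.91, 4.31, 3.70 and 2.73 and differed by 0.41 in GMP and -0.97 in MDP, so its probe sets disagreed in direction in both populations. Hspb1, which encodes a small heat shock protein that holds unfolded chains without ATP, read 4.78, 4.70, 4.82 and 5.28, and its second probe set 3.89, 4.37, 4.60 and 4.55. These disagreed as well, with -0.08 and 0.48 in GMP and 0.46 and -0.05 in MDP, and the first of these 4 turned to 0.02 when arrays were centred. Bag3, a co-chaperone that links HSP70 to selective autophagy, read 2.99, 3.27, 3.08 and 2.65 and was below the floor on every array.

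In MDP, 0 of the 7 members were at least 2-fold apart between genotypes. Over all genes above the floor, 1.1% were higher and 1.53% lower by that much. The members ran from -0.69 (Hspa1b) to 0.47 (Hsph1), with a median of 0.08 against 0.01 over all genes. Hspa1b was lower in Trib1-/- MDP, opposite to GMP. Its other probe sets read -0.05 and -0.51, both below the floor, and Hspa1a differed by 0.08 with both MDP values below the floor. None of the 20 probe sets was at least 2-fold apart in MDP, where 1.14% of all probe sets were higher and 1.27% lower.

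The size of the genotype difference in GMP less that in MDP was 2.44 for Hspa1b. For Hspa1a it was 1.76, or 0.23 with values raised to the floor, since 3 of its 4 values lay below it. Among all genes above the floor 3.64% had a value of 1 or more and 6.62% of -1 or less. By their representing probe sets the other 5 members ran from -0.63 (Dnajb1) to 0.17 (Hspa8 and Hsph1). The second probe set of Dnajb1 went the other way, at 1.38, with its Trib1-/- MDP value below the floor. That of Hspb1 did so too, at 0.53 against -0.54. With 1 array per group it was not tested whether the genotypes differ between the populations.

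**Figure D3:**
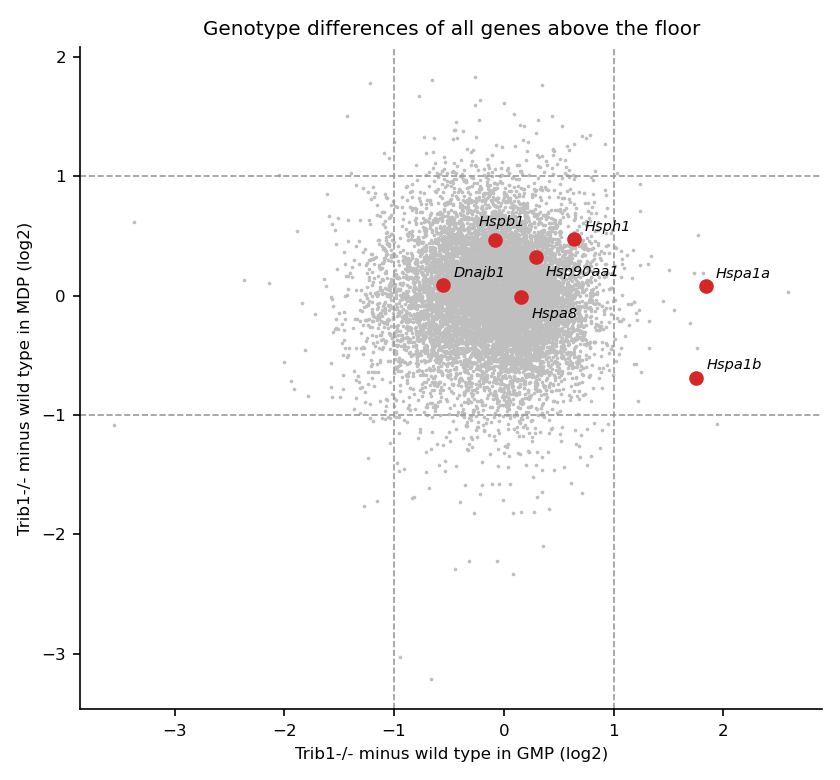
Difference between Trib1-/- and wild type (log2) in GMP (x axis) and in MDP (y axis) for the 11653 genes above the floor (grey) and the 7 heat shock chaperones among them (red), with dashed lines at 2-fold. Hspa1b (1.76 and -0.69) and Hspa1a (1.84 and 0.08, with 3 of its 4 values below the floor) lie to the right of the main cloud. Both were partly chosen on their GMP values. The other members lie inside the cloud.

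MDP and GMP were then compared within each genotype. The comparisons share their arrays with those above, so they restate the same values from another side. Hspa1b was 2.30-fold lower in wild-type MDP than in wild-type GMP and 12.5-fold lower in Trib1-/- MDP than in Trib1-/- GMP. On the log2 scale these were -1.20 and -3.65, and the weaker probe sets of Hspa1b, whose MDP values lay below the floor, read -2.23 and -1.59 in wild type and -3.91 and -3.75 in the knockout. Hspa1a read -0.42 in wild type, with both values below the floor, and -2.18 in the knockout, which became -0.23 with low values raised to the floor.

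In wild type 0 of the 7 members were higher by 2-fold or more in MDP and 1 was lower, against 4.16% and 12.4% of all genes above the floor. In the knockout 0 were higher and 2 lower, against 2.75% and 4.08%. Of the 20 probe sets, 6 were at least 2-fold lower in each genotype, not all of them the same, and 0 higher. Of all probe sets, 6.63% were lower and 3.16% higher in wild type, and 2.38% and 2.03% in Trib1-/-. Those of Hspa1b and 1431182_at of Hspa8 were in both counts. Wild type added 1426645_at and 1437497_a_at of Hsp90aa1, and the knockout added Hspa1a and 1416756_at of Dnajb1. Since Hspa1a and Hspa1b were partly chosen for their high values in Trib1-/- GMP, nothing is read from these shares. The median member stood at -0.21 (wild type) and -0.35 (Trib1-/-), and the median gene at -0.04 and -0.01. Centring the arrays turned the split of all genes apart in wild type from 74.9% to 58.9% lower and shifted the median gene from -0.04 to 0.09. Small differences of Hspa8, Hsp90aa1 and Hsph1 between the wild-type populations, the largest -0.21, changed direction under a rescaling of the arrays.

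The probe sets of Hspa8, Hsp90aa1 and Dnajb1 gave unlike values in this contrast. The Hspa8 probe set 1431182_at read 5.98 (wild type) and 6.37 (Trib1-/-) in GMP, and 3.14 and 3.21 in MDP. It was high in GMP and below the floor in MDP, a difference of -2.84 in wild type and -3.17 in the knockout. The other 3 probe sets of Hspa8 differed by -0.58 to -0.21 in wild type and by -0.58 to -0.38 in the knockout. Of Hsp90aa1, the representing probe set differed by -0.19 and -0.16, but 1426645_at by -1.10 and -0.95 and 1437497_a_at by -1.30 and -0.92. Of Dnajb1, the representing probe set differed by -0.98 in wild type and -0.35 in the knockout, and 1416756_at by -0.21 and -1.58. Which stretch of the transcript each probe set covers was not examined.

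**Figure D4:**
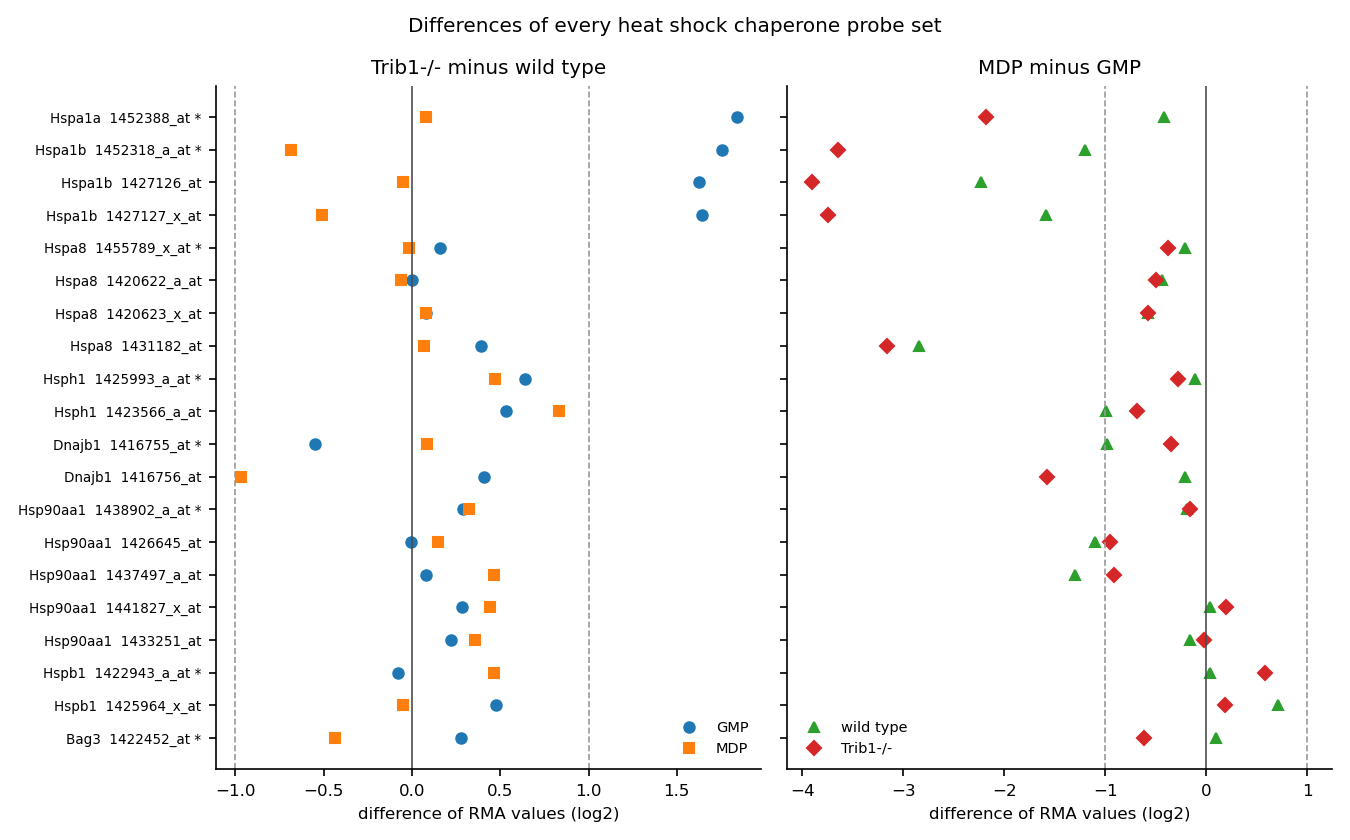
Differences of RMA values (log2, x axis) for each of the 20 probe sets (y axis, the one that represents its gene marked with an asterisk), on the left between genotypes in GMP (circles) and MDP (squares), on the right between MDP and GMP in wild type (triangles) and Trib1-/- (diamonds), with dashed lines at 2-fold. The 4 probe sets of Hspa1a and Hspa1b stand at 1.63 or more in GMP, and 1 probe set of Hspa8 stands apart from the other 3 on the right.

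Other chaperones, their partners and regulators, and other stress and immediate early genes were described with 9 lists, 89 of whose genes were above the floor. In Trib1-/- against wild-type GMP 19 of the 89 were above 0 and 70 below, where 44.6% of all genes were above 0, with a median of -0.25. By 2-fold or more, 1 was higher and 6 lower, against 0.481% and 3.16% of all genes. The 6 were Pfdn2, Pfdn5, Hdac6 and the immediate early genes Dusp1, Zfp36 and Ier3. In MDP 42 were above 0 and 47 below, with a median of -0.03, and 0 were higher and 2 lower by 2-fold or more.

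Among partners of HSP70, 11 of 14 genes were below 0 in Trib1-/- GMP (median -0.23) and none was 2-fold apart. Stub1, the ubiquitin ligase CHIP that tags HSP70 clients, differed by -0.89, and Bag1, a nucleotide exchange factor, by -0.84. Of the partners of HSP90, 11 of 14 were below 0 (median -0.31). Ahsa1, which speeds the HSP90 ATPase and is known as heat-inducible, differed by -0.76, although its second probe set read 0.25. Cdc37, the adaptor for kinases, was the only one at least 2-fold higher (1.01), but its second probe set differed by -0.89 and under cyclic loess, a rescaling, 0 were that much higher. In MDP Fkbp8 was the only one at least 2-fold lower (-1.32). A further list of HSP70 and HSP110 genes had 5 members above the floor, with a median of -0.09 in GMP (0.02 with centred arrays) and 0.10 in MDP. By representing probe sets the largest in GMP was Hspa4 (-0.26), whose 4 probe sets ran from -0.97 to 0.10. Hspa1l was below the floor on all 4 arrays.

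By their representing probe sets, all 13 genes of the TRiC chaperonin and prefoldin, which fold newly made proteins, were below 0 in Trib1-/- against wild-type GMP. Their median was -0.52, and all were below 0 also after either rescaling of the arrays. Of these, 2 were at least 2-fold lower, Pfdn2 (-1.57) and Pfdn5 (-1.07), and under centred arrays 1 was. Other probe sets of Cct3, Cct4 and Cct8 lay above 0, at up to 0.40, 0.11 and 0.12. All 8 chaperones of mitochondria and the endoplasmic reticulum were below 0 by their representing probe sets, none of them by 2-fold. Their median was -0.35, led by the mitochondrial genes Hspe1 (-0.80) and Grpel1 (-0.66). Other probe sets of Hspa9, Hspa5 and Hyou1 lay above 0, at up to 0.32, 0.28 and 0.04. In MDP these lists had medians of -0.01 and 0.06, the latter -0.01 under cyclic loess.

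The heat shock factors and their regulators had 4 genes above the floor, all below 0 in GMP (3 with centred arrays), with a median of -0.47 that was -0.15 with values raised to the floor. Hsbp1, which encodes a small protein that binds HSF1, differed by -0.79 in GMP, and its second probe set by -1.34. Hdac6, a deacetylase that senses aggregates, differed by -1.11, or -0.13 after raising its value in the knockout, which was low, to the floor. Vcp (-0.16, its second probe set 0.08) and Sirt1 (-0.002) lay closer to 0, and Hsf2 and Hsf4 were below the floor. Other heat-inducible and proteotoxic stress genes had a median of -0.001 in GMP (0.10 with centred arrays), with 6 of 12 above 0. They ran from Mt1 (-0.95, its second probe set -0.20), a metallothionein gene, to Sqstm1 (0.68, its second probe set 0.12), the autophagy receptor p62. In MDP the haem oxygenase gene Hmox1 was more than 2-fold lower in the knockout (-1.44, or -1.23 raised to the floor). Resident macrophages express it, and 5 of 6 of their markers were also at least 2-fold lower there (median -2.02), whose part in the value was not tested.

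Immediate early genes are transcribed within minutes of many stimuli. By their representing probe sets, 12 of 15 were below 0 in Trib1-/- against wild-type GMP (11 under either rescaling), with a median of -0.60. Dusp1 (-1.20), Zfp36 (-1.14) and Ier3 (-1.10) were at least 2-fold lower, and Fos differed by -0.84. Klf2 (0.36), Klf6 (0.34) and Ier5 (0.27) were above 0, with Klf2 and Ier5 below the floor in wild-type GMP. Other probe sets went the other way for Btg2 (0.41 against -0.70), Ier5 (down to -0.23) and Klf6 (down to -0.05). In MDP the median was -0.23, 10 of 15 genes were below 0, and none differed by 2-fold. The list of small heat shock genes other than Hspb1 had only 4 members above the floor, with a median of 0.01 in GMP (-0.02 under cyclic loess). The largest was Hspb11 (0.58, its second probe set 0.18). Whether each listed gene encodes a small heat shock chaperone was not examined.

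**Figure D5:**
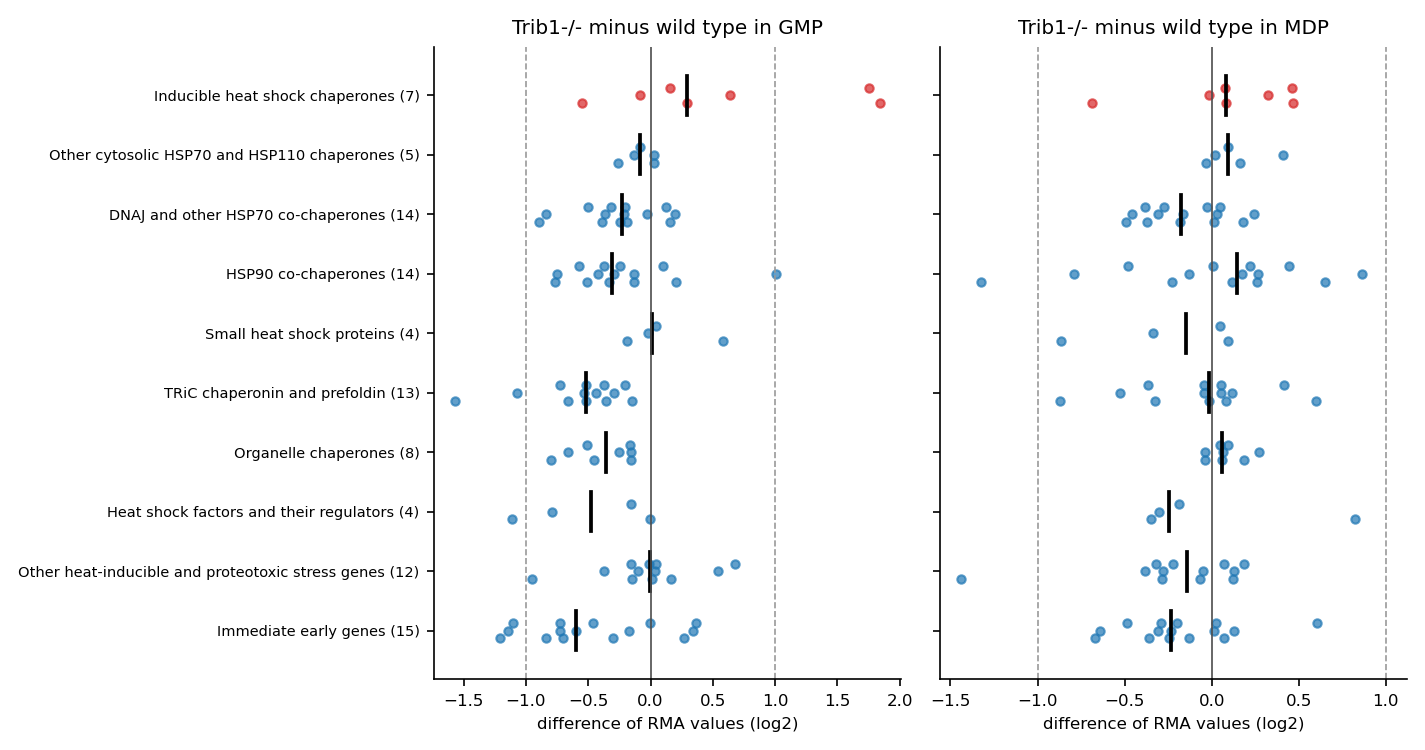
Difference between Trib1-/- and wild type (log2, x axis) in GMP (left) and MDP (right) for the 7 heat shock chaperones (red) and 9 lists of related genes (blue), with a point per gene above the floor, the number of genes in brackets, a black bar at the median and dashed lines at 2-fold. In GMP Hspa1a and Hspa1b, which were partly chosen on this comparison, lie beyond all genes of the other lists, so nothing is read from their place. Hspa1a differs by 0.23 there with values raised to the floor. The 13 chaperonin and prefoldin genes all lie below 0 by their representing probe sets.

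Genes with the pattern most like that of Hspa1b over the 4 arrays were sought by the root mean square distance between values centred on each gene's own mean. The 5 closest that are no members were Ccdc149 (0.44), Cryz (0.60), Ppic (0.61), Tmx4 (0.62) and Lgalsl (0.63). Hspa1a lay at the like distance of 0.63, and the other probe sets of Hspa1b at 0.40 and 0.14. Ccdc149 was the only one of the 5 at least 2-fold higher in Trib1-/- GMP (1.23), with only that array above the floor. The other 4 were also lower in MDP than in GMP and differed between the GMP genotypes by 0.08 to 0.21. Of these, Cryz, Ppic and Lgalsl were below the floor on both MDP arrays. Between the GMP genotypes another probe set of Tmx4 read -0.32 and the second of Lgalsl -0.29. With 4 arrays such likeness is a description.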

How the data were processed

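Per the labels' protocols, RNA was amplified with the NuGEN Ovation system into biotin-labelled material for Affymetrix arrays, with 1 array in each group. The authors deposited RMA values, per the submitters' processing notes. RMA corrects the background, makes the arrays' distributions alike and summarises each probe set, so a change in total RNA per cell cannot be seen and the folds of weak probe sets are uncertain. The deposited values are taken as log2 from their range (0.14 to 14.5), which the file does not state. The sources used here give neither the RMA version nor a genome build.

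Of 45101 probe sets, 64 were controls, 34945 carried a single gene symbol in the platform annotation, and 10092 had several or were not listed and were left unnamed. Differences between arrays were formed with Python 3.11.15, numpy 2.4.6 and pandas 2.3.3. No test was made, since each group had 1 array, and no p-value is given. The calculation was tested on simulated data. Precision is limited by the number of arrays. The members, lists and rules were chosen with earlier results of these data known. Every member was named, with the largest genes of each list between the GMP genotypes and the 5 genes closest to Hspa1b. Alternatives were other floors, values raised to the floor, the mean of probe sets, leaving out probe sets of several transcripts, cyclic loess (limma 3.58.1, 3 iterations), centred arrays, 32 added to linear values, and other sizes of fold.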

Additional observations from a re-analysis of the deposited data

Results flagged for a closer look

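Hspa1b differed between genotypes in opposite directions in the populations, by 1.76 in GMP and by -0.69 in MDP. This difference between populations was not tested, since each value rests on a pair of single arrays. The GMP value was in view when the gene was chosen. The weaker probe sets of Hspa1b differed by -0.05 and -0.51 in MDP, with values below the floor.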

How the results depend on the processing

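Of the recomputed counts and medians, 15 were classed as moved and 57 were not. The 57 are not all unchanged. They include the knockout counts that rose from 2 to 3 and the wild-type median that changed sign under cyclic loess, both given below. No difference of a member of at least 2-fold reversed. Of 28 member differences, 4 changed direction when the arrays were rescaled, none above 0.21 in size. Between the GMP genotypes 2 members were apart, and 1 was (Hspa1b) with values raised to the floor, with the floor at the 75th percentile and with 32 added to linear values, while at 4-fold the count was 0. In MDP the count of 0 became 1 at 1.5-fold (Hspa1b). For wild-type MDP against GMP the count of 1 became 2 at 1.5-fold, 0 at 4-fold, 2 with probe sets averaged and 3 without probe sets of several transcripts. In the knockout 2 became 1 with values raised to the floor, at the 75th percentile floor and with 32 added. It became 3 with probe sets averaged and 3 without probe sets of several transcripts. The median member differed by -1.10 in wild type and -2.18 in the knockout without probe sets of several transcripts, which leaves 5 members, and by -0.96 in the knockout with probe sets averaged. The wild-type median between populations stood at 0.02 under cyclic loess. No paired analysis was possible because the labels give no replicate numbers and each group has 1 array. Signal over background limits Hspa1a and Bag3.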
